A study of Homo sapiens with 9 samples.

Results

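The 35 genes described here encode transcription factors, and a few of their LIM-only cofactors, that set neural, neuroendocrine or endodermal identity during development. They were taken by gene symbol from a list of names. Of the 35, 32 had a row in the authors' table of 17518 genes with normalized counts, and all 32 passed the filter on low counts. ONECUT1, EBF2 and SOX1 were found only in the wider table of 57820 genes with FPKM values (fragment counts scaled to transcript length and library size) and are given by those values without a test. The cells were COR-L279, a long-established human line from small cell lung cancer (SCLC) that belongs to the SCLC-N subtype, with wild-type genotype per the labels and grown in RPMI medium with fetal bovine serum. The vehicle group received DMSO, and the other groups received the BET bromodomain inhibitor JQ1 at 0.5 µM or at 1.5 µM, each for 24 h. Each group holds 3 libraries of total RNA that the labels number as biological replicates, so that 9 libraries of a single cell line were compared. The title of the series places the study in the question of how BET inhibition acts on NEUROD1-driven SCLC.

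Lineage transcription factors bind DNA through homeodomains, forkhead, POU, HMG-box, zinc finger or helix-loop-helix domains and act in combinations that differ between cell types. In the developing nervous system, ISL1, POU4F1, the EBF factors, the MYT1 zinc finger factors and the SOX4 and SOX11 pair are known as regulators of neuronal differentiation. FOXA1, FOXA2 and NKX2-1 belong to the foregut endoderm from which the lung arises, and SCLC cells are known to carry factors of both kinds. JQ1 displaces the BET proteins from acetylated chromatin, and genes with strong acetylated enhancers are known to be sensitive to it.

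The libraries held between 60721187 (0.5 µM replicate 2) and 88482001 (DMSO replicate 2) reads in genes. The 0.5 µM replicate 2 library stood apart on the second principal component (10.0% of the variance), at 50.5 against -26.1 to 11.7 for the other 8. The 0.5 µM replicate 3 and the 1.5 µM replicates 1 and 2 held H19 at 1476 to 2071 normalized counts against at most 82.8 elsewhere, with some stromal transcripts moving along: LUM was at 2.91 to 4.0 FPKM against at most 0.51, COL3A1 at 2.74 to 3.05 FPKM against at most 0.50, and DCN at 0.40 to 0.41 FPKM against at most 0.02. Other collagens did not follow H19, with COL1A2 at 14.7 to 15.7 FPKM in DMSO and 4.46 to 6.04 in the treated libraries and COL1A1 at 0.24 to 0.48 in all 9. The pattern was not limited to stromal genes. SLC2A3 was at 390 to 489 normalized counts in the libraries high in H19 against at most 3.52 elsewhere. YAP1, a marker of non-neuroendocrine SCLC, was at 0.48 to 0.59 FPKM against at most 0.07, whereas VIM and CD44 of the same list did not follow H19. Over the whole list of 14 fibroblast, endothelial and blood markers, 13 of which were in the FPKM table, the summed level was 16.7 to 18.1 FPKM in DMSO, 5.94 to 14.6 at 0.5 µM and 5.49 to 12.2 at 1.5 µM, with VWF at 0 and PTPRC at or below 0.02 in every library. The 10 lung epithelial markers summed to 4.60 to 4.76 FPKM in DMSO and 1.39 to 1.63 over both doses, with SCGB3A1 and SCGB3A2 at 0 throughout. Most of that sum was AGER, the only 1 of the 10 that was tested. AGER was at 3.43 to 3.81 FPKM in DMSO and 0.94 to 1.30 in the treated libraries. The 10 markers of non-neuroendocrine SCLC summed to 93.4 to 97.4, 45.1 to 49.0 and 38.5 to 40.4 FPKM in the 3 groups, and the 8 neuroendocrine markers to 2476 to 2572, 2595 to 2731 and 2616 to 2676 FPKM. Single genes weighed on both sums. CD44 was at 79.9 to 83.4, 37.3 to 40.0 and 29.6 to 31.0 FPKM, and UCHL1 at 1120 to 1197, 1284 to 1424 and 1335 to 1378. At each dose limma called 2 of 7 tested non-neuroendocrine markers higher and 4 lower (85.7%). It called 3 of the 8 neuroendocrine markers higher and 4 lower (87.5%). Of all tested genes it called 70% and 73.1% at the 2 doses. NEUROD1, which defines the SCLC-N subtype, was at 264 to 271 FPKM in DMSO, 348 to 363 at 0.5 µM and 357 to 365 at 1.5 µM. The part of these libraries and markers in the results was not tested. Some values are also given without the 3 libraries high in H19, a choice made after seeing the data. In bulk RNA, fewer cells of a type and less RNA per cell cannot be told apart.

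The lineage factors moved in both directions, as all tested genes did. Some closely related factors parted and others moved together. At 0.5 µM JQ1, 14 of the 32 tested genes were higher than in DMSO, 12 were lower and 6 did not pass the test, where limma called 70% of all 17514 tested genes (35.3% higher and 34.7% lower) at an adjusted p under 0.05. At 1.5 µM, 16 were higher, 12 lower and 4 did not pass, where 73.1% of all tested genes were called (36.9% higher and 36.2% lower). The shares of lineage factors called were 81.2% and 87.5%, and as most of the transcriptome was called as well, a call by itself says little about these genes. A change of at least 2-fold was seen upward in 1 factor at each dose (POU3F2) and downward in 5 factors at 0.5 µM and 7 at 1.5 µM. Among all tested genes, 14.9% at 0.5 µM and 18.8% at 1.5 µM changed that far, 4.82% and 7.05% upward and 10.1% and 11.8% downward. The median log2 fold change of the lineage factors was 0.15 and 0.04 at the 2 doses, against -0.010 and -0.0030 for all tested genes, and the median size regardless of sign was 0.45 and 0.60 against 0.38 and 0.43. The 3 libraries of a dose did not overlap those of DMSO in 28 of 32 factors at 0.5 µM (72.6% of all tested genes) and in 29 at 1.5 µM (81.7%). Both comparisons share the 3 DMSO libraries. Without the 3 libraries high in H19, 1 library was left at 1.5 µM that was assumed to vary like the others. In that fit LMO1, for example, was at -1.05 and -2.05 on the log2 scale at the 2 doses (-1.10 and -1.94 with all libraries). ISL1 was at 0.20 at either dose (0.15 and 0.18 with all libraries).

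**Figure D1:**
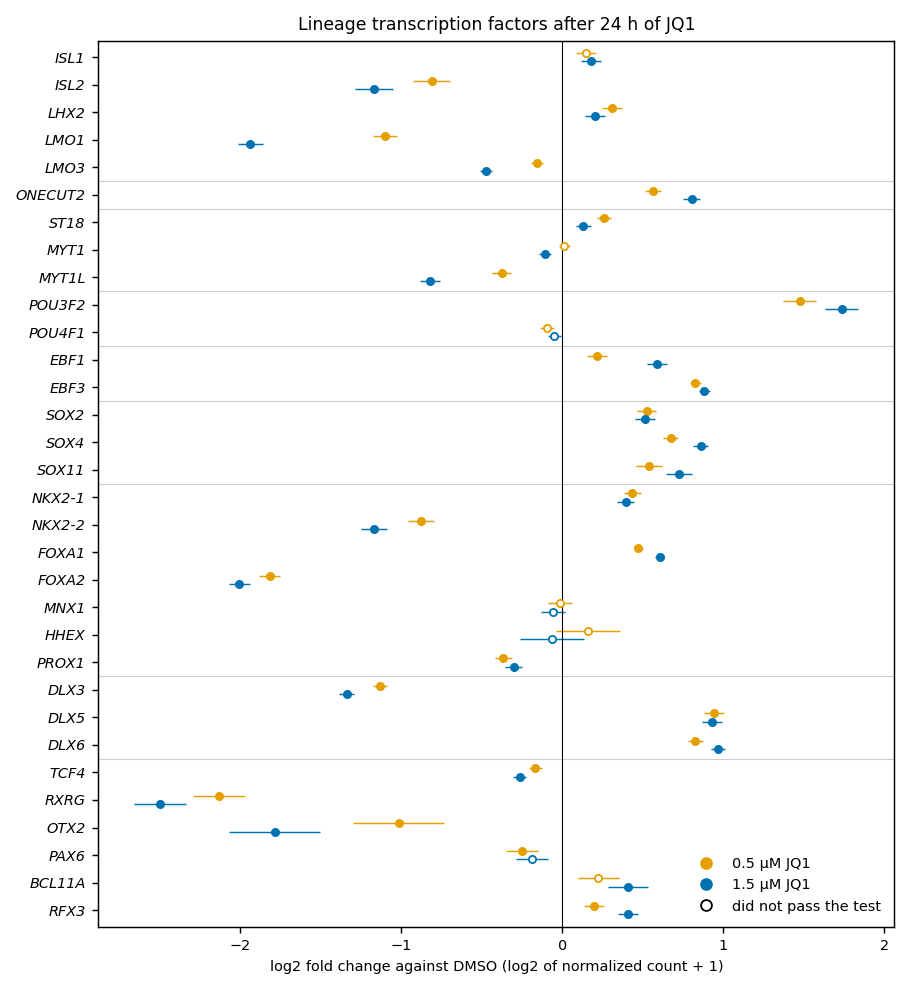
Log2 fold change against DMSO (x axis, log2 of normalized count + 1) of the 32 tested lineage factors, grouped by family, at 0.5 µM (orange) and 1.5 µM JQ1 (blue). Bars are standard errors from limma, and open circles mark genes that did not pass the test. POU3F2 lies farthest to the right at 1.47 and 1.74, and RXRG farthest to the left at -2.13 and -2.50.

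By FPKM, which corrects for transcript length and so allows genes to be compared, 17 of the 35 factors were at 10 or more in the DMSO libraries, 12 between 1 and 10, and 6 below 1. ST18, a zinc finger factor of the MYT1 family, was the most abundant at 131 ± 3.05 FPKM (SD, n = 3). FOXA1, a forkhead pioneer factor, followed at 107 ± 1.91 and the distal-less homeodomain factor DLX5 at 106 ± 1.99, whose libraries overlapped. LMO3 (67.2 ± 3.11) and ISL1 (66.7 ± 0.908) came next and also overlapped, and then SOX4 at 43.4 ± 0.946 FPKM. DLX6, MYT1 and TCF4 formed a chain of overlapping levels at 37.6, 36.1 and 34.8 FPKM, above NKX2-1 at 33.2 ± 0.0833 and LHX2 at 31.7 ± 1.44. The other end of the order lay near 0. OTX2 was at 0.37 ± 0.0624 FPKM, HHEX at 0.353 ± 0.0902 and POU3F2 at 0.25 in each DMSO library. SOX1 was listed at 0.08, 0.11 and 0.13 FPKM, ONECUT1 at 0.07, 0.05 and 0.05, and EBF2 at 0 in all 3. In the order of the 35 levels, 10 of the 34 neighbouring pairs had overlapping DMSO libraries.

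**Figure D2:**
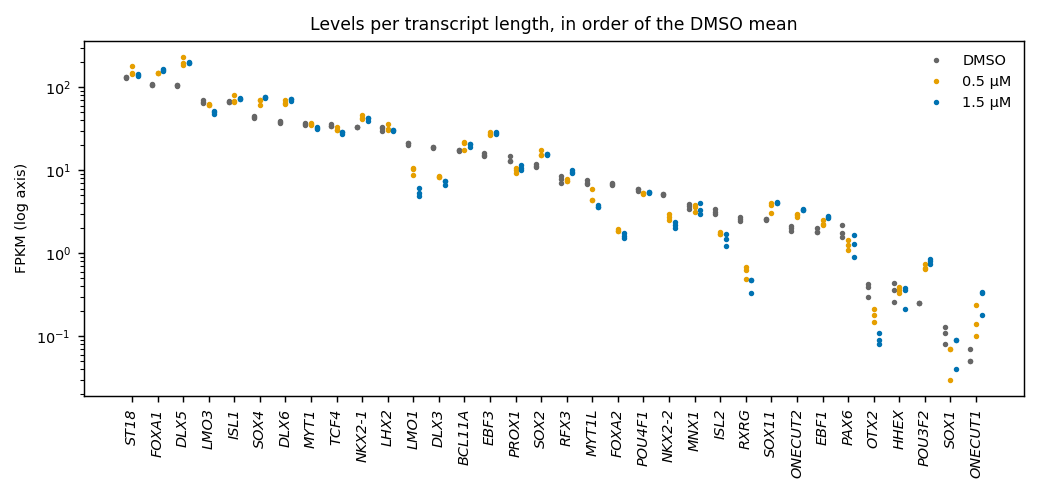
FPKM per library (y axis, log scale) of 34 lineage factors in the order of their DMSO mean, for DMSO (grey), 0.5 µM (orange) and 1.5 µM JQ1 (blue); points at 0 cannot be drawn on the log axis, and EBF2, listed at 0 in DMSO, is left out. The DMSO means run from 131 FPKM for ST18 down to 0.0567 for ONECUT1.

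Among the foregut factors, FOXA1 and FOXA2 parted. These forkhead paralogs open closed chromatin and share a DNA-binding domain, and both are known to act in lung and other endodermal epithelia. FOXA1 gave 16452, 16848 and 16907 normalized counts in DMSO replicates 1, 2 and 3, 23241, 23000 and 23327 at 0.5 µM, and 24737, 25498 and 26072 at 1.5 µM. The groups did not overlap, and every treated library lay above every DMSO library. FOXA1 rose by 0.47 ± 0.028 (log2 fold change ± SE, limma adjusted p = 1.46e-07) at 0.5 µM and by 0.60 ± 0.028 (1.5e-08) at 1.5 µM. FOXA2 gave 1084, 1031 and 1073 normalized counts in DMSO, 296, 296 and 309.8 at 0.5 µM, and 247, 264 and 281 at 1.5 µM. All 6 treated libraries lay far below the DMSO libraries. The log2 fold change of FOXA2 was -1.82 ± 0.066 (adjusted p = 5.18e-09) and -2.01 ± 0.066 (1.37e-09).

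The NK2 homeodomain factors showed the same division. NKX2-1, the thyroid transcription factor of lung epithelium, gave 4545, 4515 and 4519 normalized counts in DMSO, 5876, 6630 and 5859 at 0.5 µM, and 6004, 5607 and 6252 at 1.5 µM. It rose by 0.43 ± 0.053 (limma adjusted p = 3.46e-05) and 0.39 ± 0.053 (5.95e-05) on the log2 scale, with no overlap with DMSO. NKX2-2, a factor of ventral neural progenitors and pancreatic endocrine cells, gave 675, 679 and 669.9 normalized counts in DMSO, 368, 397 and 338 at 0.5 µM, and 327, 276 and 299 at 1.5 µM. Its log2 fold change was -0.88 ± 0.081 (adjusted p = 3.91e-06) and -1.17 ± 0.081 (3.1e-07). PROX1, a homeodomain-related factor of liver, lymphatic and neural progenitors, fell from 7064 ± 492 (SD, n = 3) to 5474 ± 251 and 5714 ± 82.3 normalized counts, a log2 fold change of -0.37 ± 0.051 and -0.30 ± 0.051. MNX1, a homeodomain factor of motor neurons and pancreas, did not pass at either dose, with 443 ± 10.6, 439.5 ± 31.2 and 426 ± 29 normalized counts and overlapping groups. HHEX, a homeodomain factor of anterior endoderm, did not pass either: its log2 fold change was 0.16 ± 0.199 and -0.07 ± 0.199 on a mean of 65.0 normalized counts in DMSO, so that changes of the size seen for NKX2-1 were not resolvable for this gene.

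The DLX factors, distal-less homeodomain proteins of forebrain interneurons and the branchial skeleton, split by gene pair. DLX5 gave 9694, 9472 and 9360 normalized counts in DMSO, 16929, 20654 and 17510 at 0.5 µM, and 17730, 18113 and 18556 at 1.5 µM. It rose by 0.94 ± 0.062 (limma adjusted p = 2.99e-07) and 0.93 ± 0.062 (2.3e-07) on the log2 scale. DLX6, its neighbour in a convergent gene pair, gave 4493, 4558 and 4381 normalized counts in DMSO, 7515, 8500 and 7834 at 0.5 µM, and 8447, 8904 and 8914 at 1.5 µM. Its rise was 0.83 ± 0.045 (7.86e-08) and 0.97 ± 0.045 (1.56e-08). For both genes the treated libraries lay well clear of the DMSO libraries, and 0.5 µM replicate 2 was the highest of its group. DLX3 moved the other way, from 3129, 3067 and 3189 normalized counts to 1413, 1412 and 1449 at 0.5 µM and 1272, 1272 and 1163 at 1.5 µM. This was a log2 fold change of -1.13 ± 0.044 (8.24e-09) and -1.34 ± 0.044 (1.43e-09), and the 9 libraries fell into 3 groups without overlap.

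The noncoding gene DLX6-AS1, which is transcribed from the DLX5 and DLX6 locus, rose from 16662 ± 432 to 58102 ± 573 and 62513 ± 1021 normalized counts, a log2 fold change of 1.80 ± 0.029 and 1.91 ± 0.029. No exon of DLX6-AS1 overlaps one of DLX6 in GENCODE release 29. How the authors' counting treated strand is not stated in the labels. The promoter of DLX6 is shown because this gene rose at both doses and its window holds 3 of the motif matches searched. The 250 bases before the RefSeq start (GRCh38.p14, chr7:97005303-97005552, plus strand) are printed 5′ to 3′, with capitals for CCAAT boxes (CCAAT, or ATTGG on the other strand) and for the cyclic AMP response element TGACGTCA.
DLX6: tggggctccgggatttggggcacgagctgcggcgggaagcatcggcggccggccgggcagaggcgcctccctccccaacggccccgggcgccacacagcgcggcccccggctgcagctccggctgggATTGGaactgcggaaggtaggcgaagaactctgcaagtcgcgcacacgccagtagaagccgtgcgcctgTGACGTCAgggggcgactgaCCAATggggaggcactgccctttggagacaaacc

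**Figure D3:**
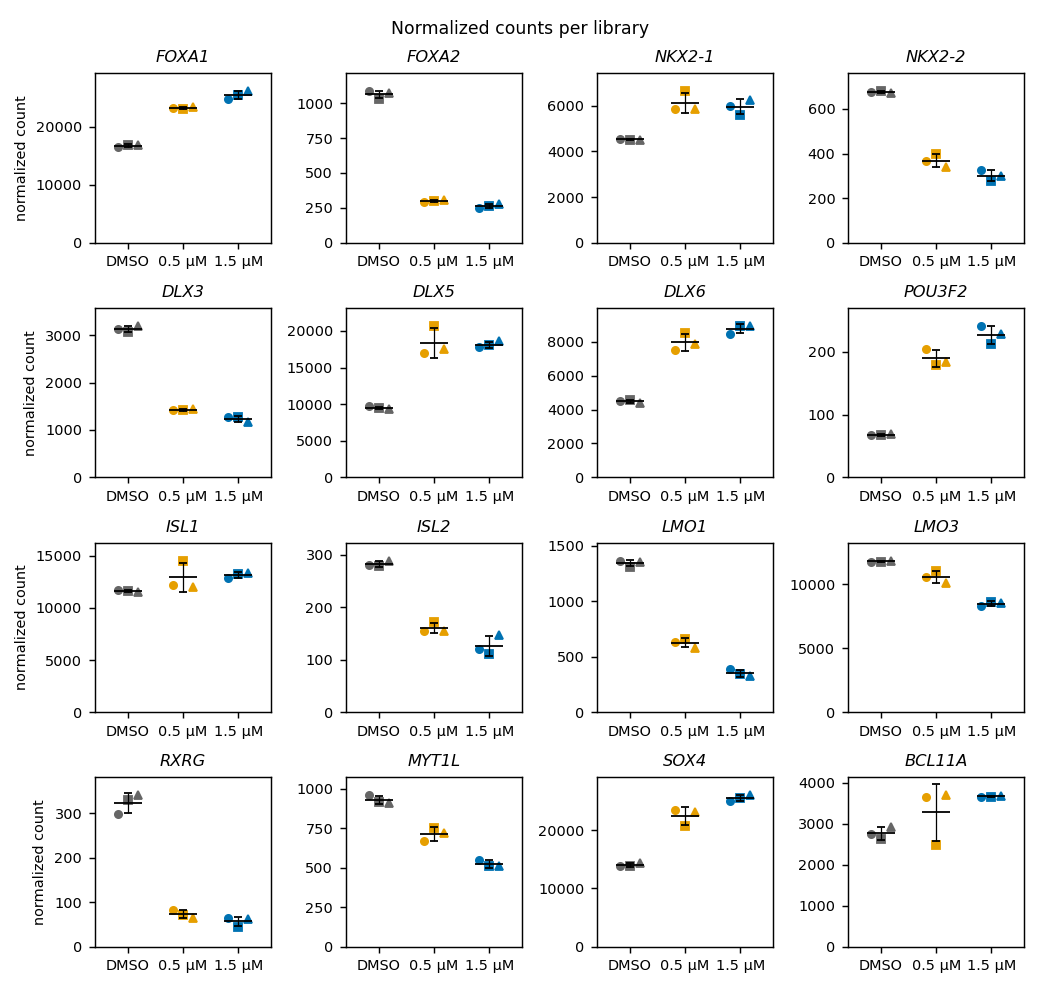
Normalized counts (y axes, each from 0) per library of 16 lineage factors in DMSO (grey), 0.5 µM (orange) and 1.5 µM JQ1 (blue); circles, squares and triangles are replicates 1, 2 and 3, and lines give the mean ± SD. FOXA1 and FOXA2, NKX2-1 and NKX2-2, and DLX5 and DLX3 lie on opposite sides of their DMSO levels.

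In the LIM family, ISL1 and ISL2 also differed. These LIM homeodomain factors specify motor and sensory neurons and, for ISL1, pancreatic endocrine cells. ISL1 gave 11699, 11597 and 11570 normalized counts in DMSO, 12203, 14528 and 12035 at 0.5 µM, and 12871, 13218 and 13367 at 1.5 µM. The rise at 1.5 µM was small, 0.18 ± 0.061 on the log2 scale (limma adjusted p = 0.0218), and at 0.5 µM the value of 0.15 ± 0.061 missed the threshold (0.0506), with replicate 2 above the other libraries. At 0.5 µM it passed in 9 of the alternatives, among them the replicate block (0.15, adjusted p = 0.0448), DESeq2 (0.15, 0.0277) and the fit without 0.5 µM replicate 2, which lowered the value to 0.06 (0.0381). The 1.5 µM call was lost in 8 of the alternatives, among them the FPKM values (0.13, adjusted p = 0.106) and the fit without the libraries high in H19 (0.20, adjusted p = 0.0945). ISL2 gave 279.8, 278 and 289 normalized counts in DMSO, 155, 171 and 155 at 0.5 µM, and 119.6, 110.0 and 148 at 1.5 µM. It fell by 0.81 (SE 0.116, adjusted p = 0.000104) and by 1.17 (SE 0.116, 5.1e-06) on the log2 scale, without overlap with DMSO.

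The promoters of ISL1 and ISL2 are shown side by side because the paralogs moved apart. Both windows hold a pair of CCAAT boxes in capitals. ISL1 (GRCh38.p14, chr5:51383198-51383447, plus strand) also has a CAGCTG E-box, and ISL2 (chr15:76336523-76336772, plus strand) the element TGACGTCA.
ISL1: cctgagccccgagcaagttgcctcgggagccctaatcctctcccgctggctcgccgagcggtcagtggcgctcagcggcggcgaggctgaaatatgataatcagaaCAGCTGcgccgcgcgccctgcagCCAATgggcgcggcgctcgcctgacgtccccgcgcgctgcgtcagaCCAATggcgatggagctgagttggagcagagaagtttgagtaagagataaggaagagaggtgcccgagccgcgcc
ISL2: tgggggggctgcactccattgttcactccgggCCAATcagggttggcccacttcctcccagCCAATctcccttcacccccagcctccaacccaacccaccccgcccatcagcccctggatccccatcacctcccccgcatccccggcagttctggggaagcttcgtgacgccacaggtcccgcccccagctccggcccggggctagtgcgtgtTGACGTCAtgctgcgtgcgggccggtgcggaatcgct

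LMO1 and LMO3 are LIM-only proteins, which lack a homeodomain and bridge LDB1 to DNA-bound partners, and both are known as neuroblastoma oncogenes. LMO1 gave 1367, 1312 and 1351 normalized counts in DMSO, 636, 662 and 580.3 at 0.5 µM, and 387, 343 and 323 at 1.5 µM. The 3 groups were stepped without overlap, and the log2 fold change was -1.10 ± 0.075 (limma adjusted p = 3.84e-07) and -1.94 ± 0.075 (4.14e-09). LMO3, more abundant per length, gave 11713, 11763 and 11830 normalized counts in DMSO, 10550, 11046 and 10084 at 0.5 µM, and 8268, 8634 and 8509 at 1.5 µM. It fell by 0.16 (SE 0.036, 0.00258) and by 0.47 (SE 0.036, 5.85e-07) on the log2 scale. LHX2, a LIM homeodomain factor of forebrain and eye, rose from 3414 ± 109.6 to 4233 ± 422 and 3933 ± 147 normalized counts, 0.31 ± 0.063 and 0.20 ± 0.063 on the log2 scale. With FPKM the LHX2 call at 0.5 µM was lost (0.05, adjusted p = 0.502) and the direction at 1.5 µM turned (-0.07, adjusted p = 0.324). The 1.5 µM call of LHX2 was also lost when replicate 3 of DMSO (0.18, adjusted p = 0.0537) or of 1.5 µM (0.17, 0.0565) was left out. The promoter of LMO1, the factor with the clearest dose steps, differs from the others printed here in its low content of CpG, with 5 CpG in the window and 45.6% GC. Capitals mark 2 matches to the homeodomain core TAATTA (GRCh38.p14, chr11:8268788-8269037, minus strand).
LMO1: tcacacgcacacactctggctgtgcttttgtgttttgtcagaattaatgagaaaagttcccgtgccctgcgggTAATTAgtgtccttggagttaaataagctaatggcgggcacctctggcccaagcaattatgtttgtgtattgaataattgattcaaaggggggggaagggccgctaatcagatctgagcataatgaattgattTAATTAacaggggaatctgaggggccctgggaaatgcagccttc

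The POU factors behaved differently from each other. POU3F2, also called BRN2, is a driver of neuronal identity and was barely present in DMSO, at 66.9, 66.9 and 68.7 normalized counts. It reached 205, 179.6 and 184 at 0.5 µM and 241, 212 and 229 at 1.5 µM. Every treated library lay far above the DMSO libraries, and the fitted fold was 2.78 (log2 1.47 ± 0.102, limma adjusted p = 4.12e-07) and 3.33 (1.74 ± 0.102, 8.35e-08). Even so its level per length stayed low, at 0.683 ± 0.0493 and 0.807 ± 0.0551 FPKM (SD, n = 3). POU4F1, or BRN3A, a factor of sensory neurons, did not pass at either dose. Its counts were 1742 ± 72.2, 1628 ± 33.2 and 1681 ± 25.9, with log2 values of -0.10 ± 0.042 (adjusted p = 0.0602) and -0.05 ± 0.042 (adjusted p = 0.297). POU4F1 passed as lower at 0.5 µM in 5 alternatives, which were FPKM (-0.14, adjusted p = 0.0482), upper-quartile scaling (-0.15, 0.0067), library weights (-0.08, 0.0446) and the fits without DMSO replicate 2 (-0.13, 0.0276) or 0.5 µM replicate 2 (-0.11, 0.0315), and at 1.5 µM with upper-quartile scaling (-0.10, 0.0428). The promoter of POU3F2 is shown as that of the factor with the greatest rise among the 32. It has 2 CCAAT boxes, in capitals (GRCh38.p14, chr6:98834324-98834573, plus strand).
POU3F2: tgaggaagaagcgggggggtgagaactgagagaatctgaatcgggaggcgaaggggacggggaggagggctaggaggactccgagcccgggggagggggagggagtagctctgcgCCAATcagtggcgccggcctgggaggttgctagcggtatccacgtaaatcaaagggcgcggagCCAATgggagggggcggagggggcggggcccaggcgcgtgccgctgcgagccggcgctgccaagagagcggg

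All 3 tested SOX factors rose at both doses. SOX4 and SOX11 are SoxC factors that promote the expression of neuronal genes in differentiating cells, and SOX2 is the SoxB1 factor of neural and foregut progenitors. SOX4 gave 13917, 13842 and 14438 normalized counts in DMSO, 23515, 20651 and 23145 at 0.5 µM, and 25047, 25527 and 25951 at 1.5 µM. Its log2 fold change was 0.67 ± 0.046 (limma adjusted p = 4.12e-07) and 0.86 ± 0.046 (4.46e-08). SOX11 rose from 1503 ± 35.8 (SD, n = 3) to 2198 ± 295 and 2479 ± 49.5 normalized counts, or 0.54 ± 0.081 and 0.72 ± 0.081. For both SoxC genes 0.5 µM replicate 2 was the lowest treated library, at 20651 for SOX4 and 1861 for SOX11. SOX2 rose from 1808 ± 52.2 to 2605 ± 261 and 2583 ± 18.8, or 0.52 ± 0.062 at either dose, with 0.5 µM replicate 2 the highest library at 2904. SOX1, the SoxB1 paralog outside the count table, was listed at 0.03 to 0.07 FPKM at 0.5 µM and 0.04 to 0.09 at 1.5 µM.

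The early B cell factors EBF1 and EBF3, helix-loop-helix proteins that act late in neuronal differentiation, rose as well. EBF3 gave 3500, 3484 and 3364 normalized counts in DMSO, 5986, 6368 and 5984 at 0.5 µM, and 6345, 6474 and 6254 at 1.5 µM. This was 1.77-fold (log2 0.82 ± 0.035, limma adjusted p = 1.39e-08) and 1.84-fold (0.88 ± 0.035, 4.82e-09), with tight groups that did not overlap DMSO. EBF1 rose less at the lower dose, from 489 ± 23.3 to 568 ± 32.3 and 736 ± 14.8 normalized counts (SD, n = 3). Its log2 fold change was 0.22 ± 0.062 (adjusted p = 0.0097; 0.19 and 0.0832 without the libraries high in H19) and 0.59 ± 0.062 (8.03e-06). EBF2 was listed at 0, 0.01 and 0.02 FPKM at 0.5 µM and 0.02, 0.01 and 0.03 at 1.5 µM. ONECUT2, a cut-domain homeodomain factor of liver, pancreas and neuroendocrine tumours, gave 2034, 2224 and 2339 normalized counts in DMSO, 3255, 3119 and 3367 at 0.5 µM, and 3892, 3784 and 3807 at 1.5 µM. The groups were stepped, and ONECUT2 rose by 0.56 ± 0.051 (3.46e-06) and 0.80 ± 0.051 (1.67e-07). Its paralog ONECUT1 was listed at 0.14, 0.10 and 0.24 FPKM at 0.5 µM and 0.18, 0.33 and 0.34 at 1.5 µM, each above the 0.07 or less of the DMSO libraries, but outside the table that was tested.

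The MYT1 zinc finger factors, which repress non-neuronal and progenitor genes, diverged. MYT1L gave 957, 914 and 909 normalized counts in DMSO, 667, 754 and 720.0 at 0.5 µM, and 549, 510.3 and 509.9 at 1.5 µM. It fell in steps, with a log2 fold change of -0.38 ± 0.061 (limma adjusted p = 0.000245) and -0.82 ± 0.061 (4.89e-07). MYT1 was at 12174 ± 426, 12280 ± 444 and 11296 ± 132 normalized counts (SD, n = 3). It did not pass at 0.5 µM (0.01 ± 0.036, adjusted p = 0.769; -0.04 with upper-quartile scaling) and was slightly lower at 1.5 µM (-0.11 ± 0.036, 0.0197; -0.13 with adjusted p = 0.0978 without the libraries high in H19). ST18, also called MYT3, rose from 16741 ± 647 to 19998 ± 908 and 18324 ± 730.1 normalized counts, or 0.26 ± 0.044 (0.00041) and 0.13 ± 0.044 (0.0214). At 1.5 µM its call did not hold with FPKM (0.09, adjusted p = 0.291) or with upper-quartile scaling (0.08, 0.0884). The ST18 call was also lost without DMSO replicate 1 (0.10, adjusted p = 0.0894), 1.5 µM replicate 2 (0.11, 0.0812) or 1.5 µM replicate 3 (0.12, 0.0756). Without the libraries high in H19 its value at 1.5 µM was 0.16.

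Of the remaining factors, RXRG showed the deepest fall among the 32. RXRG is the gamma retinoid X receptor, which pairs with retinoic acid and other nuclear receptors. It gave 298, 329.7 and 339.6 normalized counts in DMSO, 82, 71.6 and 65.3 at 0.5 µM, and 63.9, 44.4 and 62.6 at 1.5 µM. The treated libraries were far below DMSO, and the log2 fold change was -2.13 ± 0.161 (limma adjusted p = 8.09e-07) and -2.50 ± 0.161 (1.71e-07). OTX2, a homeodomain factor of forebrain and retina, fell from 40.6, 35.8 and 49.9 normalized counts to 16.6, 18.8 and 25.9 and then 12.4, 11.5 and 10.3. Its counts were small, and the errors of -1.02 ± 0.282 (0.00807) and -1.79 ± 0.282 (0.000183) were accordingly wide. The promoter of RXRG is shown as that of the factor that fell most; it holds 1 CCAAT box on the other strand, in capitals, and 24 CpG (GRCh38.p14, chr1:165445127-165445376, minus strand).
RXRG: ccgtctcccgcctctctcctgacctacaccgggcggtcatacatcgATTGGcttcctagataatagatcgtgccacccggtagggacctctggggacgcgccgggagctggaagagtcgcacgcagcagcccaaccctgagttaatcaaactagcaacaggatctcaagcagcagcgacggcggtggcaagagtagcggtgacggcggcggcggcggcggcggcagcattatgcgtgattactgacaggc

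TCF4 is the E protein that dimerizes with neurogenic helix-loop-helix factors such as NEUROD1. Its level of 10916 ± 333 normalized counts (SD, n = 3) in DMSO fell to 9719 ± 424 and 9078 ± 217. The log2 change was -0.17 ± 0.039 (limma adjusted p = 0.00287) and -0.27 ± 0.039 (0.000105). PAX6, the paired-box factor of eye, forebrain and pancreas, was at 250.4, 246 and 299 normalized counts in DMSO, 245, 211 and 211 at 0.5 µM, and 236, 232 and 228 at 1.5 µM. Its value of -0.25 ± 0.10 only just passed at 0.5 µM (0.0452) and did not pass at 1.5 µM (-0.19 ± 0.10, 0.116). The PAX6 call at 0.5 µM was lost without DMSO replicate 3, the highest library (-0.16, adjusted p = 0.177), and in 12 other alternatives. RFX3, a winged-helix factor of ciliated and endocrine cells, rose from 3174 ± 231 to 3630 ± 213 and 4199 ± 190.4 normalized counts, or 0.19 ± 0.062 (0.0161) and 0.41 ± 0.062 (0.000139). With FPKM its value at 0.5 µM was -0.02 (adjusted p = 0.813). The RFX3 call at 0.5 µM was also lost with upper-quartile scaling (0.14, adjusted p = 0.0642). It was lost too without DMSO replicate 1 (0.14, 0.0668) or 0.5 µM replicate 3 (0.16, 0.0581). BCL11A, a zinc finger repressor of neurons and blood cells, gave 2746, 2621 and 2933 normalized counts in DMSO, 3661, 2476 and 3693 at 0.5 µM, and 3654, 3662 and 3684 at 1.5 µM. Replicate 2 at 0.5 µM lay below the DMSO libraries and the other 2 of its group above them. BCL11A therefore did not pass at 0.5 µM (0.22 ± 0.127, 0.141) and did at 1.5 µM (0.41 ± 0.127, 0.0138). Without 0.5 µM replicate 2 its value at 0.5 µM was 0.41 (2.06e-06), and without the libraries high in H19 the 1.5 µM value of 0.41 did not pass (0.101).

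Set directly against 0.5 µM, the higher dose changed fewer factors. At 1.5 µM, 4 were higher (ONECUT2, EBF1, SOX4 and FOXA1) and 5 lower (LMO1, LMO3, MYT1L, NKX2-2 and DLX3) than at 0.5 µM, and 23 did not pass, where limma called 12.7% of all tested genes (4.66% higher and 8.09% lower). None of the 32 stepped by 2-fold or more between the doses, and 0.228% of all tested genes did. Among the factors that passed, LMO1 had the largest step, from 626 ± 41.8 to 351 ± 32.5 normalized counts (SD, n = 3), a log2 fold change of -0.84 ± 0.075 (adjusted p = 0.000261). Of the other lower factors, MYT1L stepped by -0.45 ± 0.061 (0.00171), LMO3 by -0.32 ± 0.036 (0.000668), NKX2-2 by -0.29 ± 0.081 (0.0431) and DLX3 by -0.21 ± 0.044 (0.0146). The NKX2-2 call was lost with the replicate block (adjusted p = 0.0624) and in 11 other alternatives, among them FPKM (adjusted p = 0.0894) and the fit with only the 6 libraries compared (adjusted p = 0.126). The steps upward were 0.37 ± 0.062 for EBF1 (0.00456), 0.24 ± 0.051 for ONECUT2 (0.0155), 0.19 ± 0.046 for SOX4 (0.0274) and 0.13 ± 0.028 for FOXA1 (0.0143). With FPKM the limma calls of EBF1 (adjusted p = 0.162), ONECUT2 (0.143), SOX4 (0.0931), FOXA1 (0.0853) and MYT1L (0.0861) were lost. With only the 6 libraries compared, those of SOX4 (0.0767), FOXA1 (0.051) and DLX3 (0.0594) were lost. Leaving out any 1 of the 1.5 µM libraries took the calls of ONECUT2 and SOX4. The counts of called factors moved with single libraries. The number of higher factors was 2 without 1.5 µM replicate 1, 1 without replicate 2 and 1 without replicate 3, and 6 without 0.5 µM replicate 2. The shares of all tested genes called in these fits, in either direction, were 7.55%, 5.69%, 5.85% and 18.4%. Without the 3 libraries high in H19, 1 library was left at 1.5 µM, too few to give that dose a spread of its own. The step of LMO1 was then -1.004. FPKM gave 1 higher and 4 lower factors of 30 tested, where 4.97% of all genes were called. Over all genes 19.5% of the FPKM calls between the doses were upward, against 36.5% for the normalized counts.

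Ratios of related factors within a library, taken on FPKM, do not depend on the scaling between libraries. The FOXA1 to FOXA2 ratio was 15.7 ± 0.565 in DMSO, 79.2 ± 2.56 at 0.5 µM and 98.4 ± 2.95 at 1.5 µM (SD, n = 3). The DLX5 to DLX3 ratio went from 5.62 ± 0.0544 to 24.5 ± 3.26 and 27.7 ± 2.05, and NKX2-1 to NKX2-2 from 6.52 ± 0.0362 to 16.1 ± 0.792 and 19.1 ± 1.08. These 3 pairs shifted most at 0.5 µM. At 1.5 µM the log2 change of the ratio was 1.55 for NKX2-1 to NKX2-2, close to 1.52 for LMO3 to LMO1. ISL1 to ISL2 went from 21.1 ± 1.47 to 41.4 ± 2.81 and 50.4 ± 8.55, LMO3 to LMO1 from 3.21 ± 0.171 to 6.25 ± 0.57 and 9.27 ± 1.22, and MYT1 to MYT1L from 5.08 ± 0.385 to 7.57 ± 1.254 and 8.80 ± 0.168. EBF3 to EBF1 (8.21, 12.0 and 10.3) and SOX4 to SOX11 (17.0, 18.7 and 18.7) shifted less. DLX5 to DLX6 was 2.81 ± 0.117, 3.11 ± 0.178 and 2.77 ± 0.0496, and at 1.5 µM it overlapped DMSO. In 17 of the 18 comparisons with DMSO the groups did not overlap. In each of these the two-sided exact permutation p was 0.1, the smallest that 3 libraries against 3 can give (0.106 after adjustment over the 18), and for DLX5 to DLX6 at 1.5 µM it was 0.7. Taken singly, 72.6% of all tested genes at 0.5 µM and 81.7% at 1.5 µM did not overlap DMSO either. Ratios of other gene pairs were not taken, so the count says little about related factors.

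**Figure D4:**
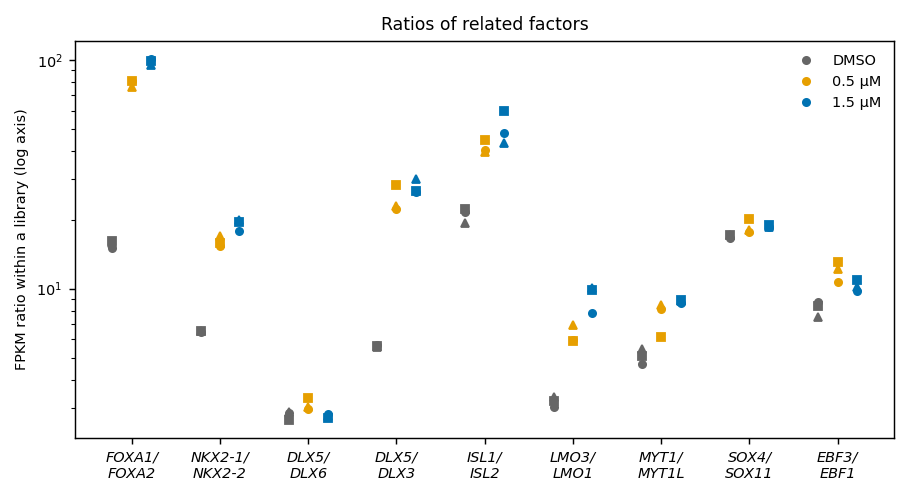
FPKM ratio of 9 pairs of related lineage factors within each library (y axis, log scale), for DMSO (grey), 0.5 µM (orange) and 1.5 µM JQ1 (blue); circles, squares and triangles are replicates 1, 2 and 3. The FOXA1 to FOXA2 ratio moves from a mean of 15.7 to 79.2 and 98.4, while DLX5 to DLX6 stays between 2.68 and 3.31 in all 9 libraries.

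The 0.5 µM replicate 2 library lay outside replicates 1 and 3, by more than those differed from each other, in 21 of the 32 factors, 11 times above and 10 times below, and in 58.7% of all tested genes. It was high for ISL1, LHX2, SOX2, NKX2-1, DLX5 and DLX6 and low for SOX4, SOX11 and BCL11A. The greatest such deviation was that of BCL11A, at -0.57 on the log2 scale. The 1.5 µM replicate 3 library, which lacks H19, lay outside replicates 1 and 2 in the same sense in 11 of 32 factors and in 29.9% of all tested genes.

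**Figure D5:**
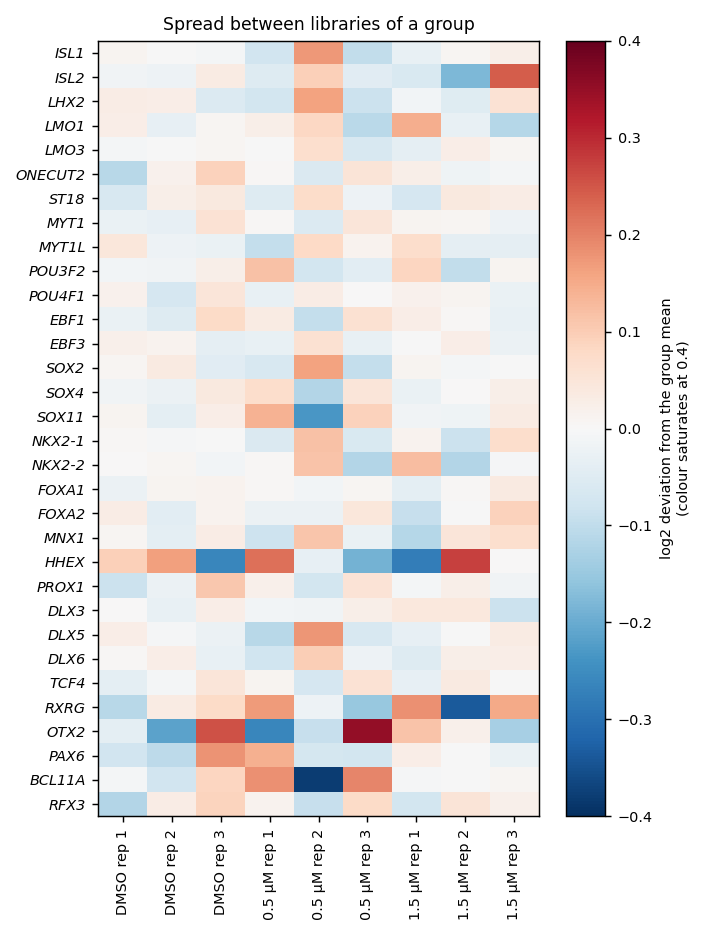
Deviation of each library from its group mean (colour, log2 of normalized count + 1, saturating at 0.4) for the 32 tested lineage factors (rows) and the 9 libraries (columns). The 0.5 µM replicate 2 column is the most strongly coloured among well-expressed genes, with BCL11A the darkest blue; HHEX, RXRG and OTX2 vary in several columns at low counts.

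Promoter windows of 250 bases before a RefSeq start were found for 28 of the 35 factors, 61 windows in all. ST18, EBF2, SOX11, FOXA2, PROX1, DLX3 and DLX5 had no window. A CCAAT box on either strand was present in 25 of the 61 windows (41.0%), against 32.0% of all 35116 windows of that table. The homeodomain core TAATTA was in 5 (8.20% against 4.35%) and the cyclic AMP response element TGACGTCA in 3 (4.92% against 1.65%), those of DLX6, PAX6 and ISL2. Of the E-boxes, CAGCTG was in 9 windows (14.8% against 14.0%) and CAGATG or its complement CATCTG in 5 (8.20% against 12.2%). The TATA box TATAAA, on either strand, was in 2 windows (3.28% against 10.7%). The median window of a lineage factor held 14 CpG against 11 for all. Several windows can belong to 1 gene and overlap. CCAAT boxes were in windows of genes that rose and of genes that fell, among them the ISL1 and ISL2 windows above. The TATA box was in windows of NKX2-2 and TCF4, and CAGATG in windows of MYT1L, PAX6, LMO3 and TCF4.

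Some of the values may include reads of overlapping genes. By GENCODE release 29, 14 of the 35 factors have an exon that overlaps an exon of another gene, and for 6 of them (ISL2, POU4F1, NKX2-1, FOXA1, PROX1 and PAX6) the other gene is in the count table. NKX2-1-AS1, antisense to NKX2-1, rose from 252 ± 17.6 to 603 ± 48.5 and 671 ± 42.0 normalized counts (log2 1.26 ± 0.083 and 1.41 ± 0.083). TTC6, opposite FOXA1, was at 417 ± 26.2, 515 ± 25.5 and 537 ± 24.4 normalized counts. ELP4, opposite PAX6, was at 1286 ± 38.5, 1577 ± 183 and 1519 ± 48.8 normalized counts beside the 222 to 265 of PAX6. PROX1-AS1 was at 56.1 ± 4.96 in DMSO and lower at 1.5 µM (-0.55 ± 0.203). MNX1-AS1, which was measured beside MNX1, was lower at both doses (-0.38 ± 0.153 and -0.68 ± 0.153), whereas MNX1 did not pass.

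Close relatives of the 35 factors moved in both directions as well. Of 42 paralogs listed, 31 were tested. At 0.5 µM 8 were higher and 18 lower, with a median log2 fold change of -0.28 (-0.010 over all tested genes), and at 1.5 µM 10 were higher and 19 lower, with a median of -0.34 (-0.0030 over all). The shares called were 83.9% and 93.5%, where all tested genes gave 35.3% higher and 34.7% lower at 0.5 µM and 36.9% higher and 36.2% lower at 1.5 µM. The deepest falls were those of PAX4, a paired-box factor of pancreatic endocrine cells (1707 ± 61.2 to 133 ± 16.4 and 56.6 ± 11.8 normalized counts, log2 -3.68 ± 0.140 and -4.91 ± 0.140), and LHX3, a LIM homeodomain factor of motor neurons and pituitary (567 ± 10.0 to 51.7 ± 6.45 and 30.8 ± 5.34, log2 -3.44 ± 0.156 and -4.17 ± 0.156). RXRA fell like RXRG, by 2.00 and 2.08 (SE 0.184) on the log2 scale. RXRB and the relatives that follow were picked after their values were seen. RXRB rose by 0.18 and 0.27 (SE 0.051). LMO4 rose (log2 1.35 and 1.57, SE 0.033) while LMO2 fell (-1.80 and -1.99, SE 0.073), and DLX2 rose from 189 ± 9.64 to 567 ± 30.1 and 632 ± 81.3 normalized counts. NKX2-4 fell with NKX2-2 (-1.52 and -1.93, SE 0.074), RFX6 fell (-1.17 and -1.35, SE 0.056) while RFX3 rose, and the E proteins TCF3 (-0.57 and -0.75, SE 0.027) and TCF12 (-0.25 and -0.31, SE 0.036) fell with TCF4.

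Of 19 genes for binding partners and inhibitors, 18 were tested. At 0.5 µM 4 were higher and 9 lower, and at 1.5 µM 5 were higher and 9 lower, with a median log2 fold change of -0.14 and -0.20 (-0.010 and -0.0030 over all tested genes). The shares called, 72.2% and 77.8%, lay near the 70% and 73.1% of all tested genes. RARG, a retinoic acid receptor and partner of RXRG, fell most, from 205 ± 17.5 to 25.8 ± 4.02 and 21.7 ± 8.41 normalized counts (SD, n = 3; log2 -2.95 ± 0.285 and -3.26 ± 0.285). The receptor RARA fell from 1294 ± 69.9 to 475 ± 49.0 and 353 ± 6.97 (-1.45 ± 0.077 and -1.87 ± 0.077). LDB2, a bridging partner of the LIM factors, fell from 428 ± 18.5 to 83.9 ± 7.41 and 75.8 ± 6.52 (-2.34 ± 0.112 and -2.48 ± 0.112). The genes that follow were picked after their values were seen. The broadly expressed LDB1 fell less than LDB2 (-0.21 ± 0.037 and -0.32 ± 0.037). Of the ID proteins, which sequester E proteins such as TCF4, ID2 (-0.20 ± 0.069 and -0.31 ± 0.069) and ID3 (-0.88 ± 0.048 and -1.16 ± 0.048) fell at both doses. ID1, the most abundant per length, passed at neither (0.11 ± 0.052 and -0.10 ± 0.052), nor did ID4 (0.02 ± 0.040 and -0.01 ± 0.040). The Groucho corepressor TLE1 rose from 1528 ± 13.2 to 3809 ± 91.1 and 4453 ± 50.7 normalized counts (1.32 ± 0.032 and 1.54 ± 0.032). Its more abundant relatives TLE2 and AES went the other way. TLE2 was at 76.4 to 78.8, 30.9 to 33.8 and 24.6 to 26.0 FPKM in the 3 groups, and AES at 388 to 408, 190 to 192 and 154 to 159. TLE3 was at 27.9 to 28.7, 19.7 to 28.0 and 28.5 to 29.2 FPKM, and TLE4 at or below 0.28 in every library.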

How the data were processed

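Total RNA of 9 COR-L279 libraries was made into stranded TruSeq libraries per the labels' protocols. The submitters' processing notes name cutadapt, STAR, RSEM and hg19. Which versions and annotation were used, and how strand was treated in counting, is not stated in the labels. The normalized counts deposited by the authors are a signal per gene, namely counts divided by 1 size factor per library. Undoing that factor gave whole reads for 100% of the values within 0.001. FPKM values, scaled by the authors for length and depth, were deposited for 57820 genes and served for levels, ratios and as an alternative.

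Differences were tested with limma (version 3.58.1, R 4.3.3) on the log2 of the normalized count + 1. A single fit with a mean-variance trend held all 9 libraries and no replicate block, and genes needed 10 or more in at least 3 libraries (17514 of 17518). Tests were two-sided and adjusted by Benjamini-Hochberg over all tested genes, with a threshold of 0.05. Values after ± are SDs over the 3 libraries of a group for levels and standard errors for log2 fold changes. On this scale the changes of low counts are understated, and each change is set against the bulk of the transcriptome. The p-values measure the spread between these libraries.

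Alternatives were pseudocounts of 0.1 and 5, no filter or a minimum of 50, FPKM (log2 of the value + 0.1, 0.5 or more in 3 libraries), scaling by TMM or the upper quartile, limma with library weights or with no trend, edgeR 4.0.16, DESeq2 1.42.0 (both on the whole reads), a fit with only the 6 libraries at issue, the replicate number as a block, and leaving out single libraries. All 35 factors are named. From each list of related factors and partners up to 3 genes are named, those called at 1.5 µM that changed most and averaged 50 normalized counts or more, and further genes are marked as picked after their values were seen. The marker lists are given by their summed levels, and their single markers were picked after their values were seen. The members and lists were chosen with earlier results of these data known. Exon overlaps came from GENCODE release 29 (GRCh38) and promoters from RefSeq (GRCh38.p14), used with their own coordinates only. No column belonged to other samples.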

Additional observations from a re-analysis of the deposited data

How the results depend on the processing

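Against DMSO, the counts of lineage factors higher and lower moved by less than 1.5 times in every alternative run at both doses. Between the doses they did not hold. The number of factors higher at 1.5 than at 0.5 µM was 4, but 1 with FPKM, 9 with library weights, 2 in the fit to the 6 libraries compared and 0 without the 3 libraries high in H19, and leaving out 1 library gave 1 to 6. The number lower was 5, but 9 with library weights, 3 with 6 libraries and 1 without the libraries high in H19, and leaving out 1 library gave 4 to 6. Of the single-gene values under the alternatives, 1564 kept direction and side of the threshold, 77 lost the call, 18 gained it and 14 changed sign. Between the doses only factors that passed in the main fit entered this tally, so no gained call could be recorded there. The causes were not tested. Sign changes were in small values. MYT1 at 0.5 µM was -0.041 with upper-quartile scaling and -0.013 without the libraries high in H19, and leaving out 1 library gave -0.013 to 0.041. MNX1 at 0.5 µM was 0.00032 without the libraries high in H19, leaving out 1 library gave -0.069 to 0.028, and MNX1 at 1.5 µM was 0.0073 without the libraries high in H19. HHEX at 1.5 µM ranged from -0.21 to 0.071 with 1 library left out. With FPKM, RFX3 at 0.5 µM was -0.022 and LHX2 at 1.5 µM was -0.074.

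With the replicate number as a block, 15 factors were higher and 11 lower at 0.5 µM, 16 and 12 at 1.5 µM, and 5 and 5 between the doses, where NKX2-2 lost its call (adjusted p = 0.0624). At 0.5 µM the block gave ISL1 a call (0.0448) and took that of PAX6 (0.0620). The labels do not say whether same-numbered libraries were prepared together. Correlations of the deviations of same-numbered libraries lay between -0.39 and 0.13, and those of differently numbered ones between -0.15 and 0.25. These deviations also carry the spread of 0.5 µM replicate 2 and of the libraries high in H19. A shared preparation was not tested. Depth limits HHEX, OTX2 and POU3F2, which had the lowest counts of the 32 in DMSO.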

Other observations

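Other regulators of endoderm and foregut, outside the 35 factors, were sparse in these cells. Of 26 such genes, 13 stayed under 0.1 FPKM in every library and 13 were tested. At 0.5 µM 4 were higher and 5 lower, and at 1.5 µM 4 were higher and 7 lower, with a median log2 fold change of -0.12 and -0.18 (-0.010 and -0.0030 over all tested genes). The shares called were 69.2% and 84.6%, against 70% and 73.1% of all tested genes. FOXP2, a forkhead factor of lung and brain, fell from 1890 ± 26.8 (SD, n = 3) to 762 ± 45.1 and 632 ± 22.1 normalized counts (log2 -1.31 and -1.58, SE 0.054). ELF3, an epithelial ETS factor, fell from 129 ± 9.36 to 62.7 ± 6.7 and 50.3 ± 19.6, and GLIS3, a zinc finger factor of pancreas and thyroid, from 91.4 ± 27.9 to 37.6 ± 5.09 and 37.1 ± 8.22. KLF5, a zinc finger factor of epithelial progenitors that was picked after its values were seen, rose by 0.61 and 0.69 (SE 0.065).

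Of 57 further neural lineage factors, 36 were tested. At 0.5 µM 11 were higher and 18 lower, and at 1.5 µM 11 were higher and 19 lower, with a median log2 fold change of -0.22 and -0.25 (-0.010 and -0.0030 over all tested genes). The shares called were 80.6% and 83.3%, where all tested genes gave 35.3% higher and 34.7% lower at 0.5 µM and 36.9% higher and 36.2% lower at 1.5 µM. BARHL1, a homeodomain factor of cerebellar neurons, fell in steps from 4931 ± 99.7 to 1935 ± 123 and 1177 ± 29.1 normalized counts (log2 -1.35 and -2.07, SE 0.048). TLX2 fell from 158 ± 10.9 to 45.4 ± 4.25 and 29.2 ± 3.97, and GATA2 from 111 ± 13.9 to 36.7 ± 10.2 and 26.5 ± 4.77. ZIC2, picked after its values were seen, rose from 366 ± 15.98 to 813 ± 45.1 and 916 ± 47.0.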
